A study of Rattus norvegicus with 14 samples.

Results

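The genes described here set how mitochondria divide their fuel between glucose and fatty acids. They are the 4 pyruvate dehydrogenase kinases Pdk1, Pdk2, Pdk3 and Pdk4, the 2 pyruvate dehydrogenase phosphatases Pdp1 and Pdp2, and the 3 uncoupling proteins Ucp1, Ucp2 and Ucp3. They were chosen by name, with earlier results of these data known, and all 9 were found among the 16816 genes of the count table. The level of each was followed in rat thyroid cells that did or did not make the PAX8-PPARG fusion protein (PPFP), without and with pioglitazone.

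PCCL3 is a rat thyroid follicular cell line. The line called PPFP makes the human fusion protein, Myc-tagged, from a stable transgene, and the line called EV holds only the vector. Each was grown for 16 hours with 1 μM pioglitazone, a drug that activates PPARG, or with vehicle, which gave 4 groups of 3 RNA-seq libraries: EV cells without pioglitazone, EV cells with pioglitazone, PPFP cells without pioglitazone and PPFP cells with pioglitazone. All groups shared a medium with insulin, thyrotropin and hydrocortisone. The 3 libraries of a group came from independent experiments, but a single line stood for PPFP and a single line for EV. A difference between the lines therefore cannot be told apart from one that arose when the lines were made, and whether a line was 1 clone was not given in the sources used here.

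The libraries held 23724703 to 35240176 counted reads. Reads assigned to Pparg, which include any from the human transgene that aligned to the rat gene, stood at 1.60 ± 0.348 CPM (mean and SD, n = 3, where CPM are the reads of a gene per 1000000 counted reads after TMM scaling) in untreated EV cells and at 54.1 ± 6.82 CPM in untreated PPFP cells, which bears on the label of the line and not on that of the drug. The thyrocyte markers Tg, Slc5a5, Nkx2-1 and Foxe1 were above 1 CPM in every group, but their levels differed. In untreated EV cells, untreated PPFP cells and treated PPFP cells, Foxe1 had means of 872.6, 132.3 and 106.1 CPM. In the same order Slc5a5 had 1122, 338.8 and 178, Nkx2-1 had 333, 223 and 174.5, and Tg had 8789, 11820 and 8462 CPM. In a bulk measurement, more cells that express a gene and more RNA per cell cannot be told apart.

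The pyruvate dehydrogenase complex turns pyruvate from glucose into acetyl-CoA and is the gate through which carbohydrate enters the citric acid cycle. The kinases phosphorylate the complex and switch it off, which leaves mitochondria to burn fatty acids, and the phosphatases remove the phosphate and switch it on again. Uncoupling proteins are carriers of the inner mitochondrial membrane. UCP1 lets protons flow back without ATP synthesis and makes heat in brown fat, whereas UCP2 and UCP3 are relatives that do not make heat in this way. In thyroid follicular cells none of these genes is a marker of the cell type. In fat, PPARG is a known activator of Ucp1, and PPAR family receptors are known activators of Pdk4.

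Fold changes are given as log2 values with their standard error (SE) from edgeR's quasi-likelihood test on the 6 libraries compared, with p values adjusted by the Benjamini-Hochberg method over all genes tested, and a gene passed the test at an adjusted p under 0.05. Comparing PPFP cells with EV cells in the absence of pioglitazone, 6 of the 9 genes were higher and 1 was lower. Of all 10264 genes tested, 22.0% were higher and 23.1% were lower. Ucp1 and Ucp3 were close to 0 counts in EV cells and entered the test only through the PPFP libraries, so that their calls say little, and without them 4 of 7 genes were higher and 1 was lower. With pioglitazone in both lines, 5 of the 9 were higher and 1 was lower, or 3 and 1 of 7 without Ucp1 and Ucp3, beside 26.3% and 26.4% of 10291 genes. In PPFP cells with versus without pioglitazone, 4 were higher and 2 were lower, beside 7.63% and 7.13% of 10064 genes. In EV cells, 7 of the 9 had enough counts for the test and none passed, beside 0% of the 10146 genes tested in either direction.

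Leaving out Ucp1 and Ucp3 between the lines, where the filter on counts fixed their calls, those with a fold change above 2 were Pdk4 in all 3 comparisons, Ucp1 and Ucp3 with the drug in PPFP cells, all higher, and Pdp1 with pioglitazone in both lines, which was lower. The same limit was passed without pioglitazone by 7.27% of all genes upward and 7.31% downward, with pioglitazone by 9.30% and 10.4%, and for the drug in PPFP cells by 1.11% and 1.31%. The median log2 fold change of the 7 genes other than Ucp1 and Ucp3 was 0.32 without pioglitazone and 0.25 with pioglitazone, in place of 0.51 and 0.75 over all 9, and that of the 9 genes was 0.21 for the drug in PPFP cells, beside 0.0016, 0.012 and 0.012 for all genes tested. The comparison of the lines without pioglitazone and that of PPFP cells with and without it share the PPFP libraries without the drug.

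**Figure D1:**
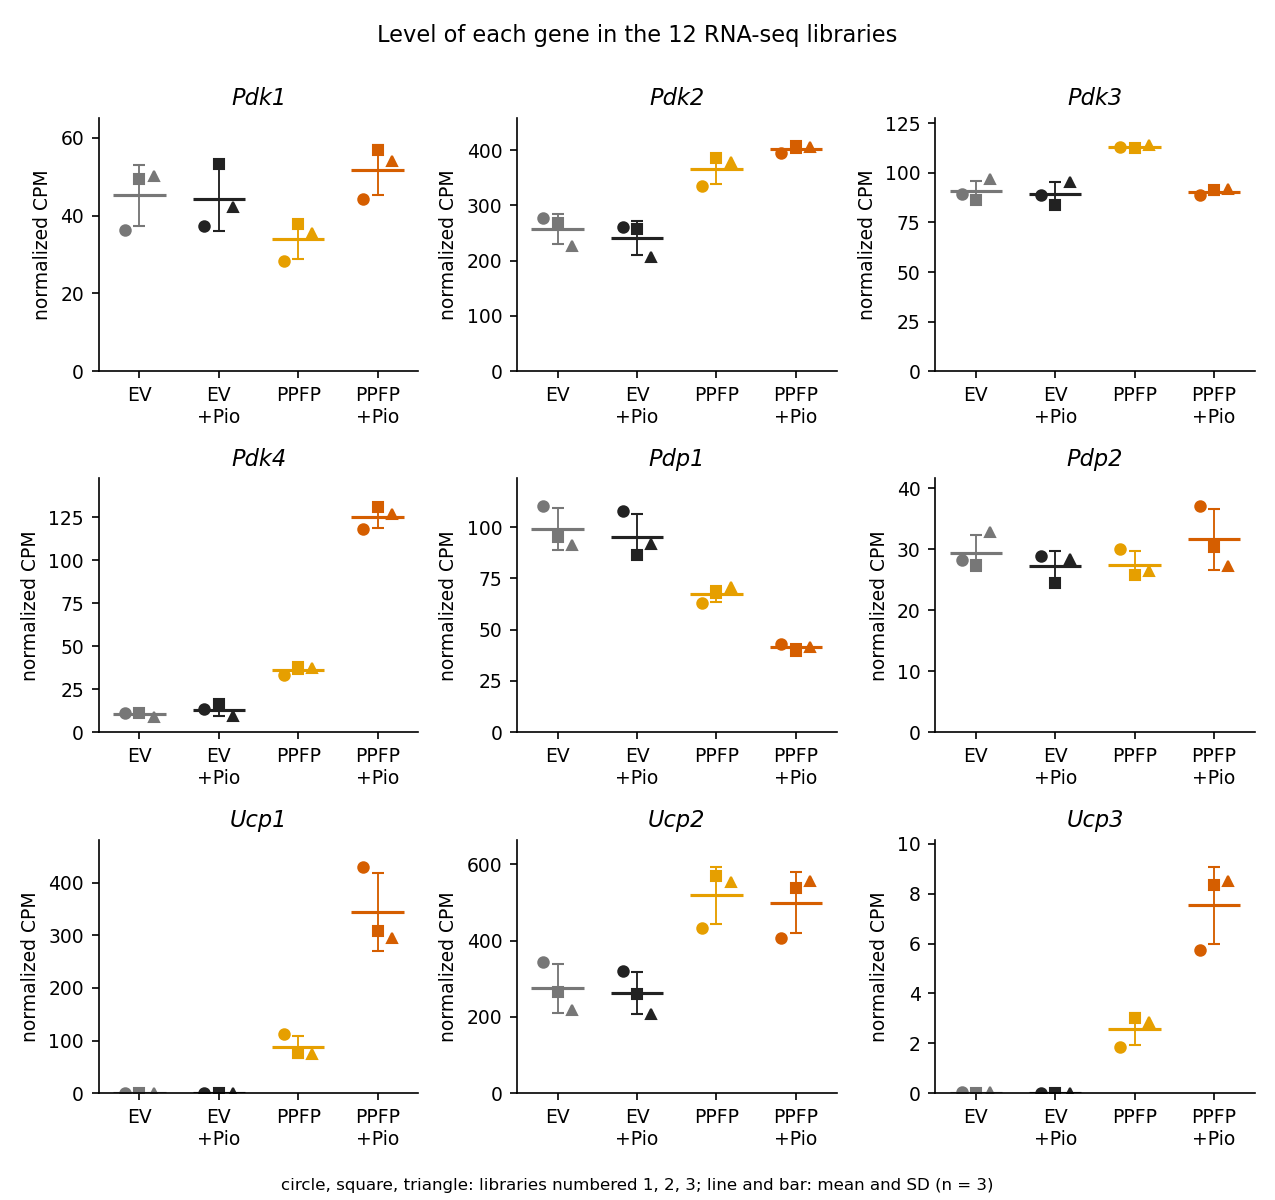
Level of each gene in normalized CPM (vertical axis, from 0) in the 4 groups (horizontal axis). Symbols are the 3 libraries of a group, and the line and bar are their mean and SD. Ucp1, Ucp3 and Pdk4 step up from EV cells to PPFP cells and again with pioglitazone, Pdp1 steps down, and the groups of Pdp2 overlap.

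Ucp1 was nearly silent in EV cells and abundant in PPFP cells. EV cells without pioglitazone had 3, 0 and 3 reads of Ucp1 in the 3 libraries, and EV cells with pioglitazone had 1, 0 and 4. PPFP cells without pioglitazone had 3044, 2033 and 1737 reads, or 112, 75.9 and 74.4 CPM. PPFP cells with pioglitazone had 11367, 8277 and 8833 reads, or 430.3, 308.7 and 294.8 CPM. No group of PPFP cells overlapped with another group, and the library numbered 1 was the highest in both.

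From summed normalized counts, Ucp1 without pioglitazone was 1313-fold higher in PPFP cells relative to EV cells, with an exact 95% interval of 603.1 to 3580. With pioglitazone in both lines it was 6616-fold higher, with an interval of 2835 to 20380. Library 3 of treated EV cells held 4 of the 5 reads behind that ratio, and without it the ratio was 23280 from 1 read, with an interval of 4178 to 919500. These intervals cover counting error only, and they are wide because the EV libraries together held 6 reads without and 5 reads with the drug. In PPFP cells, where both groups were well covered, pioglitazone raised Ucp1 by 1.99 on the log2 scale (SE 0.21, adjusted p = 0.0023). The 3 pairs of same-numbered libraries gave fold changes of 3.84, 4.07 and 3.96, which lay closer together than the levels themselves. By size of the fitted fold change, Ucp1 was number 19 of 10064 genes in this comparison.

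Ucp3 followed the same course at far fewer reads. UCP3 is the relative that is known mainly from skeletal muscle and brown fat. EV cells had 1, 0 and 1 reads without pioglitazone and none in the 3 libraries with it. PPFP cells had 50, 81 and 67 reads without pioglitazone, or 1.84, 3.02 and 2.87 CPM, and 152, 224 and 255 reads with it, or 5.75, 8.35 and 8.51 CPM. The lowest library with the drug was above the highest without it. The ratio of summed counts without pioglitazone was 114.5, with an exact 95% interval of 31.3 to 951.9 from 2 reads in EV cells, and it was 76.3 (interval 20.9 to 634.7) without EV library 2, which had none. With pioglitazone, the level of Ucp3 in PPFP cells was at least 80.1-fold higher, against a floor of 3 counts per EV library. Within PPFP cells the drug raised Ucp3 by 1.56 on the log2 scale (SE 0.25, adjusted p = 0.0095), and the pairs gave fold changes of 3.13, 2.76 and 2.97.

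Ucp2 is expressed in many tissues and was well expressed in both lines. Its levels in EV cells were 343.6, 265.3 and 217 CPM without pioglitazone and 320.5, 258.8 and 208.3 CPM with it. In PPFP cells they were 432.2, 569.9 and 553.9 CPM without and 407.4, 537 and 555.6 CPM with the drug. The library numbered 1 was the highest of EV cells and the lowest of PPFP cells with either treatment, and the lines did not overlap. Ucp2 was higher in PPFP cells by 0.91 without pioglitazone (SE 0.18, adjusted p = 0.005) and by 0.95 with it (SE 0.18, adjusted p = 0.0041). Pioglitazone left a difference of -0.04 in PPFP cells (95% interval -0.35 to 0.27, adjusted p = 0.91), and no change was detectable within that interval.

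The start regions of these genes were looked at because Ucp3 and Ucp2 are adjacent protein-coding genes in the rat genome, and in PPFP cells the first passed the test for the drug while the second did not. Whether their responses differed was not tested. Sequences are those of RefSeq for the build GRCr8, from 250 bases before the annotated start to 50 bases after it, on the strand of the gene, and 7 of the 9 genes had one (Pdp1 and Pdp2 had none). Capitals mark letters that match a motif searched on both strands.
Ucp1 (chr19:41721372-41721671, minus strand): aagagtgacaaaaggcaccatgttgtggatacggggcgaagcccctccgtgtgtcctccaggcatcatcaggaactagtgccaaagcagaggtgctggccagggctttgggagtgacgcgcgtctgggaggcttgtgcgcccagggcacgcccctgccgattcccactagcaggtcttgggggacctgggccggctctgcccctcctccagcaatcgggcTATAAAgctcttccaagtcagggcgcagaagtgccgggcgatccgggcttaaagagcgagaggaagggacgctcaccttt
Ucp3 (chr1:164227660-164227959, plus strand): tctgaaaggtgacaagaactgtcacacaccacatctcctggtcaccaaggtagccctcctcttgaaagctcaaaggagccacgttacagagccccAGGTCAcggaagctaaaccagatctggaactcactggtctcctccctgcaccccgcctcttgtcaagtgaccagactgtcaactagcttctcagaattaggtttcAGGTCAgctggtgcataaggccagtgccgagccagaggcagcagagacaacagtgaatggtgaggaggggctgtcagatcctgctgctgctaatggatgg
Ucp2 (chr1:164251123-164251422, plus strand): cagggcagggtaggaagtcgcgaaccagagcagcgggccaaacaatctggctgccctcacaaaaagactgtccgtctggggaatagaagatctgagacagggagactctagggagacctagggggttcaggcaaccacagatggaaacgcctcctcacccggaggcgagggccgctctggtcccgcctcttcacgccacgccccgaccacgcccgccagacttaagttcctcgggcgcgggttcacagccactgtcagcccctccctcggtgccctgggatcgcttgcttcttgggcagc
Pdk4 (chr4:34568280-34568579, minus strand): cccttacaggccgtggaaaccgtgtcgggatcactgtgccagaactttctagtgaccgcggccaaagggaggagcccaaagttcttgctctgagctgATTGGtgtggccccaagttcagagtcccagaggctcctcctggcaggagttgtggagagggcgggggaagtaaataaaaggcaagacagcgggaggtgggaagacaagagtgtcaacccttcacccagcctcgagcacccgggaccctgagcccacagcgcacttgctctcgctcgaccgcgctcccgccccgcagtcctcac

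In the Ucp1 sequence the capitals are a TATA box, spelled TATAAA, at positions -30 to -25 from the start. This motif was found in 14.2% of the 33469 rat start regions of this length. In the Ucp3 sequence they are 2 copies of AGGTCA, the unit that nuclear receptors such as the PPARs recognise, at positions -155 to -150 and -50 to -45. A copy was found in 16.2% of all start regions. In the Pdk4 sequence the capitals are a CCAAT box read on the other strand, at positions -153 to -149, and such a box was found in 37.5% of all regions. Pdk2 had 3 CCAAT boxes and Pdk3 had 1. The Ucp2 and Pdk1 sequences held none of these motifs. The direct repeat AGGTCANAGGTCA, in which PPARG and its partner RXR bind side by side, was found in none of the 7 sequences and in 0.0538% of all regions. Of the 7 regions, that of Ucp3 had the lowest share of G and C, 54%, and that of Pdk1 the highest, 72%, beside a median of 51.7% over all regions. These matches describe letters in short windows, and binding outside the windows was not examined.

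Pdk4 is the kinase best known for its rise in fasting muscle and heart, where it holds the complex inactive. It had 11.1, 11.2 and 8.63 CPM in EV cells without pioglitazone and 13.3, 16.3 and 9.15 CPM with it. In PPFP cells it had 33.3, 38.0 and 37.3 CPM without pioglitazone and 118, 131 and 127 CPM with it. The 2 EV groups overlapped, whereas each PPFP group stood apart from every other group. Without the drug, Pdk4 was 3.52-fold higher in the PPFP line, a log2 difference of 1.81 (SE 0.13, adjusted p = 4.1e-05). With pioglitazone in both lines it was 9.81-fold higher, a log2 difference of 3.29 (SE 0.19, adjusted p = 1.9e-05).

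Within PPFP cells, pioglitazone raised Pdk4 by 1.80 on the log2 scale (SE 0.08, adjusted p = 2e-04), number 37 of 10064 genes by size. The pairs of same-numbered libraries gave fold changes of 3.54, 3.44 and 3.40. In EV cells the log2 difference was 0.32 (SE 0.22, adjusted p = 1), with fold changes of 1.20, 1.46 and 1.06 in the pairs. The response to the drug was larger in PPFP cells than in EV cells by 1.46 (SE 0.24, adjusted p = 0.0092) in the test of the difference itself, the interaction of line and drug over all 12 libraries.

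The other kinases differed far less between the groups. Pdk1, a kinase known to be induced by low oxygen, without pioglitazone ranged over 36.2 to 50.1 CPM in EV cells and over 28.2 to 37.9 CPM in PPFP cells, and these groups overlapped. The log2 difference was -0.42 (SE 0.16, adjusted p = 0.07). Same-numbered libraries of the lines gave ratios of 0.779, 0.768 and 0.710, all below 1. With the library number as a block Pdk1 passed as lower in PPFP cells (-0.41, adjusted p = 0.022). However, the numbers did not pair libraries between these lines, where deviations of same-numbered libraries correlated by -0.28, 0.43 and -0.41. In PPFP cells with pioglitazone the libraries had 44.4, 56.7 and 54.0 CPM, all above the 28.2, 37.9 and 35.6 CPM without it. The drug raised Pdk1 by 0.62 (SE 0.15, adjusted p = 0.036). The adjusted p was 0.065, 0.11, 0.14 and 0.12 without PPFP library 2 or 3 of the untreated group or library 2 or 3 of the treated group. With the drug in both lines the difference between them was 0.25 (SE 0.15, adjusted p = 0.22).

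Pdk2, the most widely expressed of the kinases across tissues, was at 277, 269 and 226 CPM in untreated EV libraries and at 336, 385 and 378 CPM in untreated PPFP libraries. It was higher in PPFP cells by 0.51 (SE 0.11, adjusted p = 0.0059), and by 0.75 with pioglitazone in both lines (SE 0.10, adjusted p = 0.00072). No library of EV cells reached the PPFP libraries in either comparison. Within PPFP cells the drug left a log2 difference of 0.15 (SE 0.066, adjusted p = 0.2). Same-numbered libraries of a line deviated together, and with the library number as a block Pdk2 passed the test here (0.15, adjusted p = 6e-04).

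Pdk3, a kinase of more restricted expression, was higher in PPFP cells without pioglitazone only to a small degree. Its levels were 89.2, 86.4 and 96.7 CPM in EV libraries and 113, 112 and 114 CPM in PPFP libraries, a log2 difference of 0.32 (SE 0.075, adjusted p = 0.011). The adjusted p was 0.052 without EV library 1 and 0.054 without PPFP library 3. Pioglitazone lowered it in PPFP cells to 88.6, 91.3 and 91.8 CPM, and it fell by 0.31 on the log2 scale (SE 0.048, adjusted p = 0.0085; 0.053 without the untreated PPFP library 3). With the drug in both lines, PPFP cells and EV cells differed by 0.03 (95% interval -0.13 to 0.19, adjusted p = 0.75). Of the kinases, Pdk3 was thus lower and Pdk1 and Pdk4 were higher with pioglitazone in PPFP cells.

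**Figure D2:**
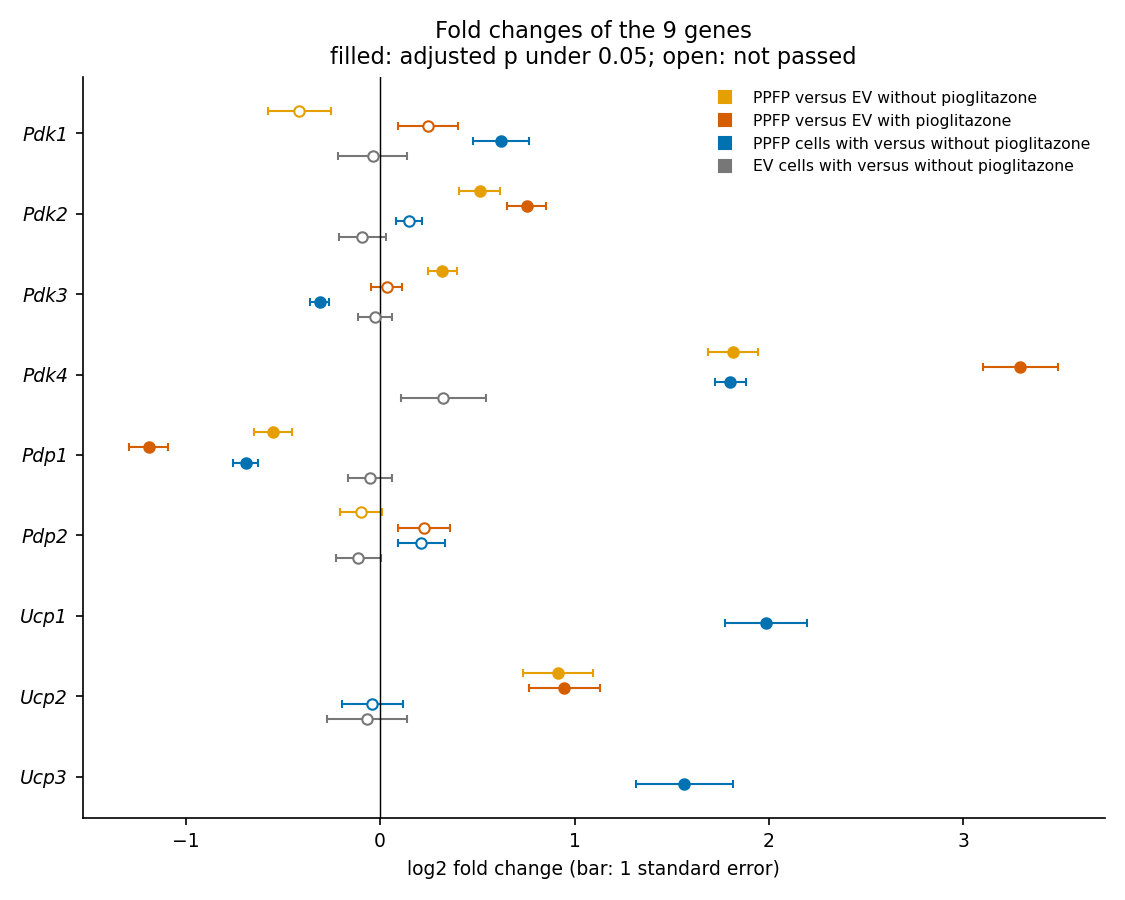
Log2 fold change (horizontal axis) of each gene in the 4 comparisons, with bars of 1 standard error. Ucp1 and Ucp3 are shown only within PPFP cells, since EV cells were near 0 counts. Pdk4 reaches 3.29 and Pdp1 falls to -1.19 between the lines with pioglitazone, and no value of EV cells with versus without the drug is filled.

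Pdp1, the calcium-stimulated phosphatase that reactivates the complex, moved opposite to Pdk4. EV cells had 110.4, 94.9 and 91.0 CPM without pioglitazone and 107.8, 86.6 and 91.6 CPM with it. PPFP cells had 63.2, 68.0 and 70.7 CPM without and 42.9, 39.7 and 41.4 CPM with it. The groups formed 3 separate levels, of which the highest held both EV groups. Pdp1 in untreated cells fell by 0.55 on the log2 scale from EV cells to PPFP cells (SE 0.098, adjusted p = 0.0029). With pioglitazone in both lines it fell by 1.19 (SE 0.10, adjusted p = 8.4e-05), a 2.28-fold lower level.

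Within PPFP cells, pioglitazone lowered Pdp1 by 1.62-fold, a log2 change of -0.69 (SE 0.066, adjusted p = 0.0015). The pairs kept 0.679, 0.584 and 0.586 of the untreated level. In EV cells the pairs gave 0.977, 0.912 and 1.01, a log2 difference of -0.05 (SE 0.11, adjusted p = 1). The responses of the lines differed by -0.65 (SE 0.14, adjusted p = 0.033). Leaving out any of 8 of the 12 libraries gave an adjusted p of 0.052 to 0.1 for this difference: libraries 2 and 3 of untreated EV cells, library 1 of treated EV cells, libraries 2 and 3 of untreated PPFP cells and all 3 of treated PPFP cells.

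Pdp2, the phosphatase known for its response to insulin, ranged over both treatments from 24.5 to 32.7 CPM in EV libraries and from 25.8 to 37.1 CPM in PPFP libraries, and all groups overlapped. It passed none of the tests on the 6 libraries compared. Its log2 differences between the lines were -0.10 without (adjusted p = 0.49) and 0.23 with pioglitazone (adjusted p = 0.19). The drug left a difference of 0.21 in PPFP cells (SE 0.12, adjusted p = 0.32), which passed with the library number as a block (0.21, adjusted p = 0.0039).

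**Figure D3:**
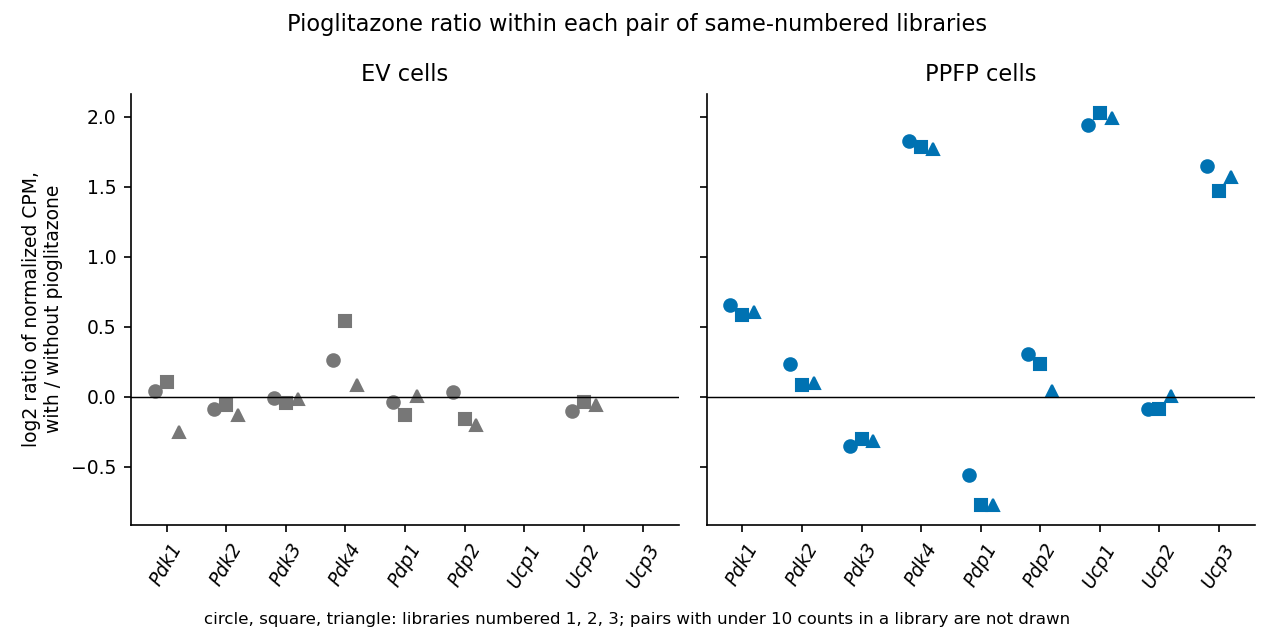
Log2 ratio of normalized CPM with versus without pioglitazone (vertical axis) in each pair of same-numbered libraries, for EV cells and PPFP cells. Pairs with under 10 counts in a library are left out. The 3 pairs of PPFP cells lie together for Ucp1, Ucp3, Pdk4, Pdk1, Pdk3 and Pdp1, away from 0, and the pairs of EV cells lie between -0.25 and 0.27 apart from 0.54 for 1 pair of Pdk4.

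The tests of the difference in response between the lines were passed by Pdk4, upward, and Pdp1, downward, of the 9 genes, beside 1.38% and 1.26% of 10482 genes. For Ucp1 and Ucp3 the fitted difference rests on the EV libraries near 0 counts, with adjusted p of 0.55 and 0.29. With the library number within each line as a block, 7 genes passed, 5 upward and 2 downward, but so did 17.2% and 17.1% of all genes. The 5 genes added were Pdk1 (0.64, adjusted p = 5.1e-05), Pdk2 (0.23, adjusted p = 0.0027), Pdk3 (-0.30, adjusted p = 0.00021), Pdp2 (0.31, adjusted p = 0.013) and Ucp1 (2.30, adjusted p = 0.033), the last again set by EV libraries near 0 counts. In the comparison of PPFP cells with and without pioglitazone, the block brought the genes that passed from 6 to 8, 6 higher and 2 lower, beside 27.7% and 23.9% of all genes. In EV cells none of the 7 tested genes passed with or without the block, and DESeq2 and the exact test of edgeR also passed none. Of all 10146 genes tested in EV cells, 16 had an unadjusted p under 0.05 without the block. This is far fewer than the share of 0.05 that arises without any effect, so that test was conservative there. With the block, 1 of the 10146 genes passed.

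Of the 6 measured genes of the pyruvate dehydrogenase complex, Pdha1, the subunit that the kinases phosphorylate, and Dld, its dihydrolipoamide dehydrogenase, were higher in PPFP cells without pioglitazone, by 0.35 (SE 0.076, adjusted p = 0.0076) and by 0.34 (SE 0.075, adjusted p = 0.0076), 2 of 6 beside 22.0% of all genes. The same 2 were higher with pioglitazone in both lines, by 0.55 and 0.58, beside 26.3% of all genes, and rose with the drug in PPFP cells, by 0.17 and 0.24, beside 7.63%. With the block, 2 of the 6 rose with the drug, near the 27.7% of all genes. Pdhb, Dlat, Pdhx and the phosphatase regulatory subunit Pdpr did not pass, and Pdha2, a testis form, had no reads in any library. Of the 5 genes of the branched-chain kinase Bckdk and its complex, the nearest relatives of these kinases, none passed without pioglitazone, beside 22.0% of all genes higher and 23.1% lower. Ppm1k, the phosphatase of that complex, was lower by 0.41 with pioglitazone in both lines (adjusted p = 0.036), 1 of 5 beside 26.4% of all genes. With the drug in PPFP cells none of the 5 passed, beside 7.63% and 7.13%, and with the block 1 rose and 1 fell, beside 27.7% and 23.9% of all genes.

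Among 9 genes for the entry and other fates of pyruvate, 3 were higher and 1 was lower in PPFP cells without pioglitazone, beside 22.0% and 23.1% of all genes. Pc, which carboxylates pyruvate to oxaloacetate, was higher by 1.85 (SE 0.073, adjusted p = 4e-06). Gpt, which exchanges alanine and pyruvate, was higher by 1.08, and Mpc2, a subunit of the mitochondrial pyruvate carrier, by 0.44. Slc16a3, an exporter of lactate, fell by 1.71. With the drug in PPFP cells, 3 rose and 1 fell, beside 7.63% and 7.13% of all genes: Slc16a1, a carrier of lactate and pyruvate, rose by 1.04, Pc by 0.56 and Gpt by 0.50, and Ldhb fell by 0.31. With the block, 6 rose and 1 fell, beside 27.7% and 23.9% of all genes.

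Of 11 genes that bring fatty acids into mitochondria and oxidise them, 9 were higher and 1 was lower in PPFP cells without pioglitazone, beside 22.0% and 23.1% of all genes. With pioglitazone in both lines 10 were higher, beside 26.3%, and 8 rose with the drug in PPFP cells, beside 7.63%. With the block all 11 rose, beside 27.7%. Their median log2 fold change was 0.82, 1.34 and 0.65 in these 3 comparisons, against 0.0016, 0.012 and 0.012 for all genes. Acaa2, the thiolase of the last step, rose by 1.21 with the drug (SE 0.066, adjusted p = 0.00037), the medium-chain dehydrogenase Acadm by 0.86 and the long-chain dehydrogenase Acadl by 0.82. Cpt1a, the liver form of the enzyme that gates entry, was the gene that was lower without pioglitazone, by 0.39, and it rose by 0.62 with the drug. The muscle form Cpt1b was higher in PPFP cells by 0.89 and had a drug difference of 0.30 that did not pass. None of the 11 passed in EV cells. This list was chosen with earlier results of these data known, so its counts are not independent of those results.

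Of the 4 measured relatives of the uncoupling proteins, Slc25a30 was lower by 0.41 in PPFP cells without pioglitazone (adjusted p = 0.023), and Slc25a5, an ADP/ATP carrier, was higher by 0.66 with pioglitazone in both lines (adjusted p = 0.023). Each was 1 of 4, near the 23.1% of all genes that were lower and the 26.3% that were higher in these comparisons. Slc25a4 and Slc25a14 did not pass in any comparison of 6 libraries, and Slc25a27 had no reads. With the drug in PPFP cells none of the 4 passed, beside 7.63% and 7.13% of all genes, and with the block 1 rose, beside 27.7% of all genes.

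Among 15 known regulators of these genes, 6 were higher and 5 were lower in PPFP cells without pioglitazone, beside 22.0% and 23.1% of all genes. Apart from Pparg, the higher ones were Thrb, a thyroid hormone receptor (1.49), Nrip1, a corepressor (1.25), Nr3c1, the glucocorticoid receptor (0.93), Foxo1 (0.58) and Ppard (0.52). Lower were Rxra, the partner of PPARG (-1.18), Ppargc1a, a coactivator that drives Ucp1 in brown fat (-1.16), Thra (-0.48), Esrra (-0.47) and Foxo3 (-0.39). With the drug in PPFP cells, Thrb rose by 0.55, Nr3c1 by 0.48, Nrip1 by 0.38 and Esrra by 0.19, and Thra fell by 0.58, so that 4 rose and 1 fell, beside 7.63% and 7.13% of all genes. With the block, 7 rose and 1 fell, beside 27.7% and 23.9%. Pparg itself had a log2 difference of 0.09 with the drug. Of these 15, none passed the test of the difference in response between the lines, whereas with the block 7 passed upward and 1 downward, beside 17.2% and 17.1% of all genes.

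**Figure D4:**
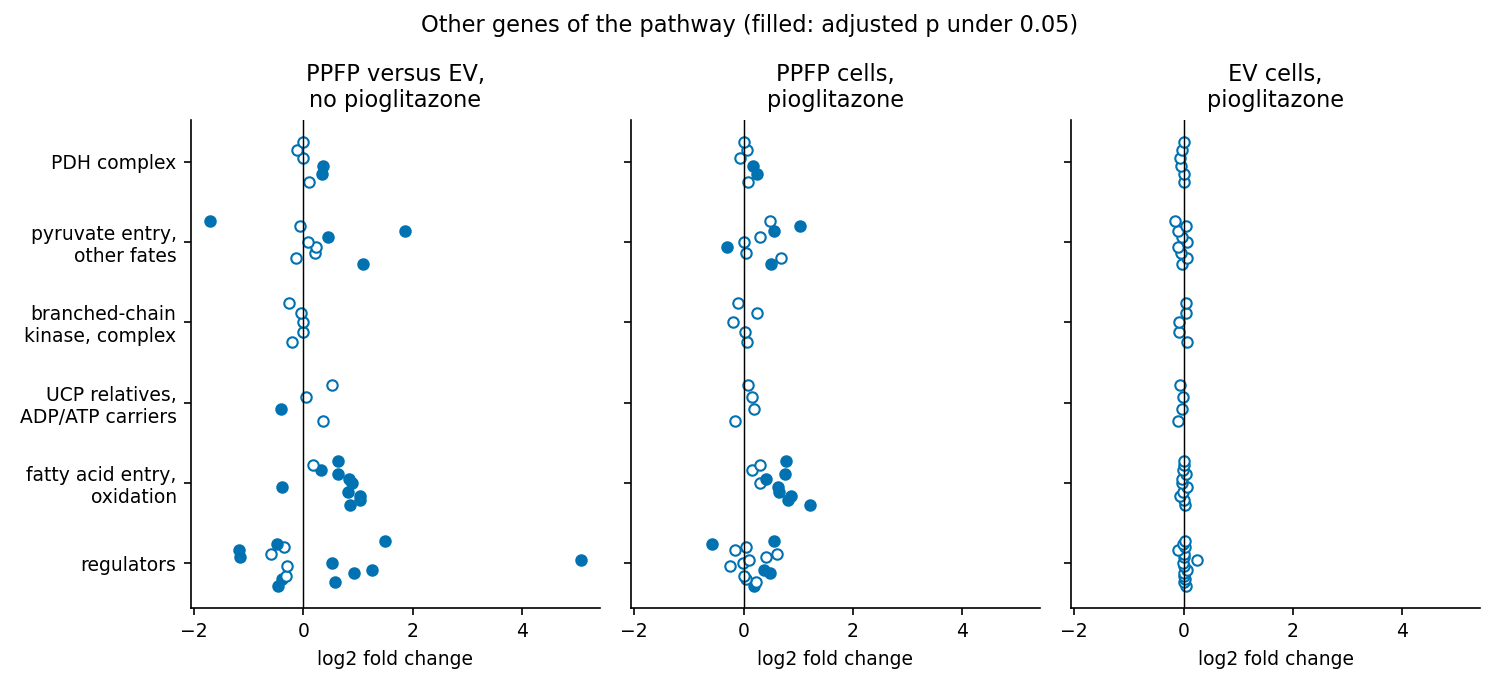
Log2 fold change (horizontal axis, the same in each panel) of every tested gene of the 6 pathway lists, 1 point per gene. Filled points passed the test. The fatty acid genes lie to the right of 0 in PPFP cells versus EV cells, except Cpt1a at -0.39, and in PPFP cells with pioglitazone, and all points of EV cells are open.

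The rise of Ucp1 was set beside other markers of fat cells. Of the brown adipocyte markers, Cidea had no reads except 1 in each PPFP library with pioglitazone, and Dio2 had no more than 1 read in any library. Elovl3 had 14, 4, 15 and 100 reads in all in EV cells without and with and PPFP cells without and with pioglitazone. The 4 brown markers other than Ucp1 summed to 23.6 to 48.6 CPM in EV cells without pioglitazone and to 13.2 to 17.6 CPM in untreated PPFP cells, and to 23.8 to 46.9 and 17.5 to 23.5 CPM with it, nearly all from Ppargc1a. So this sum was not higher in the PPFP groups than in the EV groups. Being set by Ppargc1a, it says little about Cidea, Elovl3 and Dio2. Elovl3 had means of 0.16, 0.039, 0.20 and 1.19 CPM in the 4 groups, in the order given for its reads.

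Of the general adipocyte markers, 6 of 7 were in the table. Their summed level without pioglitazone was 10.1 to 13.1 CPM in EV libraries and 722.5 to 749.1 CPM in PPFP libraries, and 9.19 to 13.9 and 975.3 to 1006 CPM with it, most of it from Cfd. Plin1, which coats lipid droplets, had 6.44 CPM in PPFP cells without and 40.9 CPM with pioglitazone, and Cidec had 8.06 and 22.0 CPM. The defining markers Lep and Fabp4 were at 0 reads in every library and at no more than 5 reads in any library, respectively, and Adipoq was at 2.13, 1.88, 4.54 and 2.40 CPM in the 4 groups. The part of these markers in the levels of the uncoupling proteins was not tested. Of the skeletal muscle markers, which bear on Ucp3, Myh1 and Myh4 had no reads, and the summed level of the 5 markers without pioglitazone was 2.47 to 12.2 CPM in EV libraries and 0.448 to 0.846 CPM in PPFP libraries, and 2.52 to 15.4 and 0.300 to 0.833 CPM with it. Macrophage markers summed to 4.38 to 6.90 CPM over all libraries, and fibroblast markers to 20.4 to 34.5 CPM, with Col3a1 and Dcn at 0.

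The genes beside the members on the chromosome were looked at after the members' values were seen. Between the lines, 22.0% of all genes were higher and 23.1% lower without pioglitazone, and 26.3% and 26.4% with it. With the drug in PPFP cells these shares were 7.63% and 7.13%. A pass between the lines was thus common among all genes. The genes beside Ucp1 were among those that passed. Tbc1d9 stood at 47.4, 47.2, 116 and 167.3 CPM in EV cells without and with and PPFP cells without and with pioglitazone, and rose by 0.54 with the drug in PPFP cells (SE 0.068, adjusted p = 0.0042). Elmod2 stood at 109.7, 116.5, 159.3 and 191.2 CPM and rose by 0.27 (SE 0.060, adjusted p = 0.028). Beside Ucp3, C2cd3 passed none of the 3 tests, and its drug difference in PPFP cells was -0.10 (adjusted p = 0.52). Beside Pdk4, Asb4 was at 0 CPM in EV libraries and at a mean of 0.012 CPM in PPFP libraries. Tmem67, beside Pdp1, was lower in PPFP cells by 0.69 without pioglitazone (SE 0.17, adjusted p = 0.013) and by 0.92 with it (SE 0.11, adjusted p = 0.00045), and its drug difference in PPFP cells was -0.21 (adjusted p = 0.5). Dnajb13, beside Ucp2, was higher by 2.05 and 2.01 at means of 0.604, 0.751, 2.52 and 3.01 CPM in the 4 groups. Cdh16, beside Pdp2, was lower by 1.83 and 2.60 and fell by 0.94 with the drug in PPFP cells (adjusted p = 0.0064). Itga6, beside Pdk1, was lower by 0.34 in both comparisons of the lines. Samd14, beside Pdk2, was higher by 1.74 with pioglitazone in both lines (adjusted p = 0.013) and did not pass without it (1.35, adjusted p = 0.09). Its means were low, at 0.526, 0.364, 1.35 and 1.22 CPM in the 4 groups. The part of these neighbours in the counts of the members was not tested.

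For the 8 members that passed a test on the libraries compared, the most similar genes over the 12 libraries were named. Pdp2 was thus left out. The measure was the smallest root mean square difference of centred log2(CPM + 0.5), among 9638 genes. The added 0.5 shrinks fold changes of genes near 0 CPM, so that similar genes can differ in fold change. For Ucp1 the most similar genes were Dhrs9, at a difference of 0.33, Fgfbp1 and Gulo. Dhrs9, a retinol dehydrogenase, had 0.100, 0.108, 118 and 314.6 CPM in the 4 groups, a course close to that of Ucp1. For Ucp3 they were Wnt7a, a secreted Wnt ligand (0.15), Tmem140 and Gpd1, the glycerol 3-phosphate dehydrogenase that links glycolysis to triglyceride synthesis. Unlike Ucp3, Tmem140 (6.6, 6.88, 51.8 and 136.7 CPM in the 4 groups) and Gpd1 (183, 189, 939.5 and 3124 CPM) were expressed in EV cells. For Pdk4 the most similar genes were Zfp385d (0.25), Susd4 and Ptp4a3. Unlike Pdk4, Susd4 (0.078, 0.080, 2.09 and 7.53 CPM) and Ptp4a3 (0.022, 0, 1.23 and 5.28 CPM) were near 0 in EV cells. For Pdp1 the most similar genes were Dio1 (0.076), Arhgap28 and Mtch1. Dio1, the deiodinase that activates thyroid hormone, had 262, 261 and 193 CPM in the first 3 groups and 111.5 CPM in PPFP cells with pioglitazone. For Ucp2 they were Ehd2 (0.11), Fam83h and Arhgef25, for Pdk1 Mthfd1l (0.12), Pmel and RGD1306119, for Pdk2 Adck1 (0.071), Trim26 and Wdr44, and for Pdk3 Erap1 (0.050), Tfcp2l1 and Arhgef1. Likeness over 12 libraries of 4 groups describes a similar course on this scale and no more.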

How the data were processed

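RNA-seq counts of 12 libraries, 3 in each of 4 groups named from the sample labels, were analysed. The authors aligned paired reads to rn4 with TopHat2 2.0.11 and counted reads per gene with HTSeq 0.6.1p1 in its intersection-strict mode, and the deposited values are these raw counts, not normalized. Whether counting used strand was not given in the sources used here, so reads from overlapping genes on the other strand may be included. The peak lists hold rn4 positions and were not used here, since no annotation of that build was at hand. No column of the count table was left out for want of a sample (0 columns).

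Tests used edgeR 4.0.16 under R 4.3.3: filterByExpr, TMM, glmQLFit and glmQLFTest on the 6 libraries compared, and the interaction on all 12, with Benjamini-Hochberg adjustment over all genes. Standard errors were derived from the fold change and F statistic. CPM used TMM factors over the 12 libraries, between 0.925 and 1.05. A gene near 0 counts in EV cells was given as a ratio of summed normalized counts with its exact 95% interval, and with 0 counts as a bound against 3 counts per library; the plan had set that bound also for 1 to 3 counts. Alternatives were DESeq2 1.42.0, the exact test, RLE factors, library size alone, other filters, a replicate block, 1 fit of all libraries and leaving out each library. The method was tested on simulated counts. Figures were drawn with matplotlib 3.10.9 in Python 3.11.15.

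Named genes were the 9 members, the members of 6 pathway lists that passed, the 3 genes most like each member that passed a test (mean of at least 1 CPM, log2(CPM + 0.5)), Pparg and marker lists, of which some genes and 1 list are not reported here. Neighbouring genes were added after the values were seen. Members and lists were chosen with earlier results of these data known. Same-numbered libraries of a line correlated in their deviations from the group means, by 0.865, 0.655 and 0.639 in PPFP cells and 0.672, 0.846 and 0.886 in EV cells, and the methods place each experiment on shared lanes, so that numbers were taken to pair libraries within a line, although number 3 of PPFP cells correlated more with another number (0.705) and number 2 by 0.576 with another. Between the lines they did not (-0.49 to 0.43).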

Additional observations from a re-analysis of the deposited data

Results flagged for a closer look

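The response to pioglitazone differed between PPFP cells and EV cells, by the interaction test over all 12 libraries, for Pdk4 (1.46 on the log2 scale, higher in PPFP cells) and Pdp1 (-0.65), as given above. It also differed for 8 of 50 tested genes of the pathway lists, all upward, beside 1.38% of all genes upward: Pc (0.66, adjusted p = 0.0014), Cpt1a (0.54, adjusted p = 0.034), Slc25a20, the carnitine carrier (0.76, adjusted p = 0.0042), Acadl (0.80, adjusted p = 0.0031), Acadm (0.92, adjusted p = 0.022), Acadvl, the very-long-chain dehydrogenase (0.65, adjusted p = 0.0034), Acaa2 (1.17, adjusted p = 0.00042) and Etfdh, which passes electrons to the respiratory chain (0.70, adjusted p = 0.0076). With the library number within each line as a block, the interaction was passed upward by 10 of the 11 fatty acid genes, 6 of the 9 pyruvate genes and 7 of the 15 regulators. So did 2 of the 6 genes of the complex, 1 of the 4 relatives of the uncoupling proteins and none of the 5 branched-chain genes. Downward, 1 pyruvate gene and 1 regulator passed. Of all genes, 17.2% passed upward and 17.1% downward. The lists were chosen with earlier results of these data known, so these counts are not independent of those results. Groups of 3 libraries were not tested for outlying samples.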

How the results depend on the processing

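Ucp2, Pdk2, Pdk4 and Pdp1 kept their direction and passed in PPFP cells versus EV cells under every alternative that gave a value. Ucp1 and Ucp3 are not counted there, since the filter fixed their calls. The drug response of Ucp1, Ucp3, Pdk4 and Pdp1 in PPFP cells did too. A filter of 10 counts in every library gave no value for Ucp1 and Ucp3 against EV cells. The number of the 9 genes that passed the interaction test was 7 with the replicate block in place of 2 (all genes: 17.2% upward and 17.1% downward in place of 1.38% and 1.26%), among them Ucp1, which rests on EV libraries near 0 counts, and 1 to 2 when a library was left out, Pdk4 always being among them. Between the lines, where numbers did not pair libraries, the replicate block brought Pdk1 past the threshold without pioglitazone (-0.41, adjusted p = 0.022), and it changed no call of the 9 genes other than those given here and above. Pdk1 also passed there in the exact test (adjusted p = 0.047), with library size alone (-0.49, adjusted p = 0.045) and without EV library 1 (-0.56, adjusted p = 0.028), and its drug response in PPFP cells did not pass with library size alone (0.57, adjusted p = 0.066).

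Library size alone moved the median of all genes to -0.12 with pioglitazone in both lines, and with it turned Pdk3 (-0.10, adjusted p = 0.31) there and the interaction of Ucp2 (-0.024, adjusted p = 1), neither of which passed. Leaving out a library also turned signs of values that did not pass. The ranges were -0.018 to 0.068 for Pdk3 with pioglitazone in both lines, -0.17 to 0.078 for Ucp2 with the drug in PPFP cells and -0.17 to 0.19 for the interaction of Ucp2. In EV cells with the drug they were -0.19 to 0.071 for Pdk1, -0.16 to 7.5e-05 for Pdk2, -0.088 to 0.039 for Pdk3, -0.15 to 0.031 for Pdp1 and -0.24 to 0.12 for Ucp2. Library size alone moved 4 of 36 group means by more than 1 SD. The share of each kinase in the sum of the kinases was planned per coding length but not run, since no lengths were at hand, so levels were not compared between genes. The depth limits the ratios against EV cells for Ucp1 and Ucp3, which rest on 0 to 6 reads per group. P values measure the spread between 3 experiments with 1 line each.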
